A study of Mus musculus with 2 samples.

Results

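Neutrophils and their granulocyte precursors were picked from 2 single-cell libraries of sorted mouse brain cells by their S100a8 and S100a9 transcripts, which encode the subunits of calprotectin, an abundant cytosolic protein of neutrophils. A cell was a member when it had 1000 UMIs or more (unique molecular identifiers, each a captured transcript), 500 genes or more, mitochondrial UMIs of 10% or less, at least 20 UMIs of S100a8 and S100a9 together, at most 4 UMIs of the macrophage genes C1qa, C1qb and C1qc, at most 2 UMIs of the endothelial genes Cldn5 and Pecam1, and 0 UMIs of the B-lineage gene Cd79a. By this rule 103 of the 19161 cells passing the cell filter were members. 73 of them came from the IL34LacZ/LacZ library and 30 from the IL34LacZ/+ library.

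Adult mice that carried the lacZ allele of Il34 on both chromosomes (IL34LacZ/LacZ) gave 1 library, and adult mice that carried it on 1 chromosome (IL34LacZ/+) gave the other, so that both groups hold at least 1 copy of the allele. Whole brains were sorted by surface markers for fibroblasts and mural cells, endothelial cells, astrocytes, microglia and border-associated macrophages, and neutrophils were not a target of any gate that the labels give. The sources used here do not give the number of animals, their age in weeks, the part of Il34 that the allele alters or the proportions in which sorted cells were loaded. Each genotype name below stands for the library so labelled. Il34 had 453 UMIs in the filtered IL34LacZ/LacZ cells (7.56 CPM, a gene's UMIs per 1000000 UMIs summed over the cells, exact Poisson 95% interval 6.88 to 8.29) and 339 in the filtered IL34LacZ/+ cells (6.57 CPM, 5.89 to 7.31). These 3′ tags may lie outside the altered part of the gene, so they do not check the labels, and members held 1 Il34 UMI in each library.

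Neutrophils are made in the bone marrow from dividing precursors. Promyelocytes fill the first, azurophil granules with serine proteases and myeloperoxidase, myelocytes then make the specific granules with cathelicidin and lactoferrin, and the last, gelatinase granules are made as the nucleus becomes segmented and division stops. Mature cells leave for the blood through the balance of CXCR4 and CXCR2 signalling, while in the brain of a healthy mouse granulocytes are found mostly in vessels, meninges and the marrow of the skull.

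The IL34LacZ/LacZ matrix held 18858 barcodes with 95505407 UMIs and the IL34LacZ/+ matrix 17168 barcodes with 87394167 UMIs. Filtered cells had a median of 3838 UMIs in the IL34LacZ/LacZ library and 3665.5 in the IL34LacZ/+ library. The libraries shared 103 barcodes, 2 member barcodes were also present in the other library, and none was a member in both. Scrublet, a caller that compares cells with simulated doublets, marked 6.46% of IL34LacZ/LacZ and 6.44% of IL34LacZ/+ barcodes, and it marked no member. Each genotype has a single library without a replicate, so no difference was tested, and every interval covers counting error within these libraries only.

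Members made up 0.705% of filtered cells in the IL34LacZ/LacZ library (Clopper-Pearson 95% interval 0.553 to 0.886) and 0.340% in the IL34LacZ/+ library (0.230 to 0.486). The sort and the loading set these shares together with the tissue, and their parts cannot be told apart. The summed S100a8 and S100a9 count ran from 20 to 6397 with a median of 1993 UMIs in IL34LacZ/LacZ members, and from 33 to 5726 with a median of 1705 UMIs in IL34LacZ/+ members. 66 IL34LacZ/LacZ and 27 IL34LacZ/+ members had at least 200 such UMIs, so most lay far above the limit. The cells nearest the limit inside it had 20, 28 and 41 UMIs in the IL34LacZ/LacZ library and 33 and 40 in the IL34LacZ/+ library. Those nearest outside it had 12 and 18 UMIs in the IL34LacZ/LacZ library and 13 in the IL34LacZ/+ library. The IL34LacZ/LacZ cell with 18 UMIs held 230 Elane UMIs and 15 of Ms4a6c, a monocyte gene, and the IL34LacZ/+ cell with 13 UMIs held 68 and 30.

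Of the 14 neutrophil markers, S100a8 and S100a9 were used by the rules that picked members, monocyte-like cells and endothelial-like cells. They are left out of this check of the label. The other 12 summed to 87367 CPM in IL34LacZ/LacZ members and 85695 CPM in IL34LacZ/+ members, against 370 and 522 CPM in the monocyte-like cells of the same libraries. All 12 were detected in the members of both libraries, against 9 in the monocyte-like cells of each. Among the markers of other blood cells, the 6 monocyte genes summed to 919 CPM in IL34LacZ/LacZ members and 1004 CPM in IL34LacZ/+ members, with Ly6c2 giving 82.4% and 91.2% of those UMIs. The 4 basophil and mast cell genes had 0 UMIs in IL34LacZ/LacZ and 3 in IL34LacZ/+ members, and the 3 eosinophil genes 3 and 2. Free RNA was measurable. Ngp, a granule gene that the member rule did not use, stood at 23269 CPM in IL34LacZ/LacZ and 21453 CPM in IL34LacZ/+ members, while 4.08% of IL34LacZ/LacZ and 2.56% of IL34LacZ/+ endothelial-like cells held an Ngp UMI, at a level of 12.2 and 7.78 CPM.

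8 members also held transcripts of another cell type at a level far from the rest, 6 of them in the IL34LacZ/LacZ library and 2 in the IL34LacZ/+ library. Of these, 4 carried 79 to 227 UMIs of Cd74, the invariant chain of MHC class II. A pair carried 2220 and 2468 UMIs of Ttr, the choroid plexus transport protein transthyretin, and another pair carried 38 and 125 UMIs of Mgp, a matrix protein of fibroblasts and mural cells. In 2 IL34LacZ/LacZ members with 79 and 115 Cd74 UMIs, S100a8 and S100a9 made up only 0.784% and 0.527% of the UMIs, against a median of 31.9% over the members of that library. The first of these also had 13 UMIs of the dendritic cell gene Cd209a, against 0 in the second and 17 in the member with 227 Cd74 UMIs. Neutrophil markers were present in both, with 8 Retnlg and 4 Csf3r UMIs in the first. The second had 1 Retnlg, 7 Csf3r and 6 Mmp9 UMIs. By their S100 share and Cd74 these 2 members go against the neutrophil label, and by those markers they do not. They are named below as the 2 members that go against the label. The limits behind the 8 (20 UMIs of Cd74, 200 of Ttr or 20 of Mgp) were chosen after the values were seen. None of the 8 was marked by Scrublet. Some results that rest on them are given with and without them, and where no such value is given the 8 are included.

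Members were placed along 4 stages by the granule genes they held per 10000 UMIs of the cell. A cell with at least 10 per 10000, and at least 3 UMIs, of Mpo, Elane, Prtn3 and Ctsg was called azurophil. The others were called specific-granule-high at 300 or more per 10000 of Ngp, Camp and Ltf, intermediate at 30 to under 300, and specific-granule-low under 30. The stages are ranges of a score and not types, and their 7 genes are described without a test. In the IL34LacZ/LacZ library 8 cells lay within 1.5-fold of the limit of 300 and 2 within 1.5-fold of the azurophil limit, against 1 and 1 in the IL34LacZ/+ library.

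Among the members, the specific-granule-high stage was the largest in both libraries. It had 41 of 73 IL34LacZ/LacZ members (56.2%, 95% interval 44.1 to 67.8) and 14 of 30 IL34LacZ/+ members (46.7%, 28.3 to 65.7). The azurophil stage held 12 IL34LacZ/LacZ members (16.4%, 8.79 to 27.0) and 7 IL34LacZ/+ members (23.3%, 9.93 to 42.3). The intermediate stage was sparse, with 6 and 2 cells, and the specific-granule-low stage held 14 IL34LacZ/LacZ members (19.2%, 10.9 to 30.1) and 7 IL34LacZ/+ members (23.3%, 9.93 to 42.3). The intervals of the libraries overlapped at every stage. Azurophil and specific-granule-high cells together outnumbered specific-granule-low cells in each library. These shares depend on the S100 limit of the member rule. A further 18 IL34LacZ/LacZ and 8 IL34LacZ/+ cells met the azurophil limits and every other member limit with fewer than 20 S100 UMIs. They are not counted here, so the order of the stages holds for members only.

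**Figure D1:**
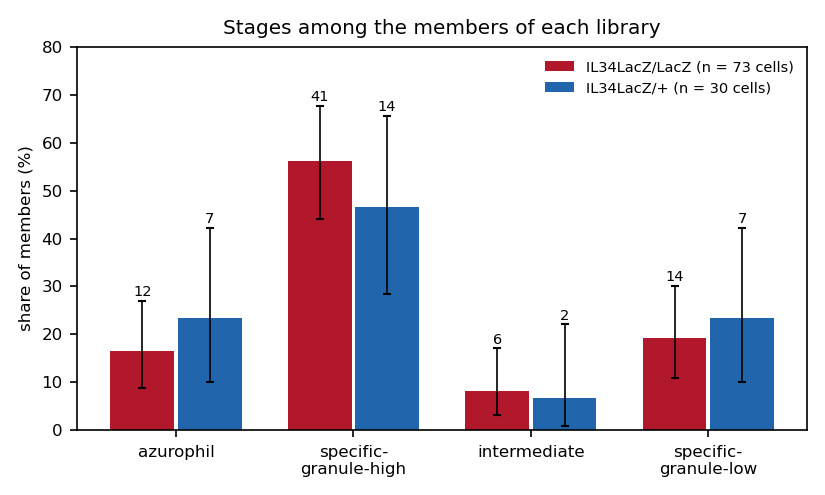
Share of members in each stage (y axis, %), with the stages in order of granule formation on the x axis, IL34LacZ/LacZ left of IL34LacZ/+; bars are shares, lines the Clopper-Pearson 95% intervals, and cell numbers are printed at the bars. The specific-granule-high stage is the tallest in both libraries, with 41 and 14 cells, and the intervals of the libraries overlap at every stage.

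Elane, which encodes neutrophil elastase, lies on chromosome 10 (79886247 to 79888215, forward strand, GRCm38) beside Prtn3, the gene of proteinase 3 (79874476 to 79883174, forward strand). Per 10000 UMIs of the cell, Elane ran from 8.50 to 161 with a median of 45.4 in the 12 IL34LacZ/LacZ azurophil cells, and from 2.24 to 296 with a median of 69.4 in the 7 IL34LacZ/+ azurophil cells. In the specific-granule-high stage 4 of 41 IL34LacZ/LacZ and 1 of 14 IL34LacZ/+ cells still held it, at no more than 6.58 and 1.14 per 10000. Of endothelial-like cells, which should lack granule transcripts, 0.785% held an Elane UMI in the IL34LacZ/LacZ library (median 2347 UMIs) and 0.153% in the IL34LacZ/+ library (median 2333 UMIs). Mpo, the gene of myeloperoxidase, had 177 UMIs in 8 of 12 IL34LacZ/LacZ azurophil cells and 335 in 5 of 7 IL34LacZ/+ azurophil cells. It had 0 UMIs in every later stage, which in the specific-granule-high stage allows up to 8.46 CPM in the IL34LacZ/LacZ library and 24.3 CPM in the IL34LacZ/+ library (3 counts).

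The azurophil stage itself held cells without and with specific-granule transcripts. 3 IL34LacZ/LacZ and 4 IL34LacZ/+ azurophil cells had fewer than 10 UMIs of Ngp, Camp and Ltf, a limit chosen after the values were seen, and none of these cells held a Camp UMI. Their median S100a8 count was 28 UMIs in the IL34LacZ/LacZ library and 124.5 in the IL34LacZ/+ library, and their median Elane count was 56 and 385 UMIs. The 9 IL34LacZ/LacZ and 3 IL34LacZ/+ azurophil cells with 10 or more had a median of 971 and 1220 S100a8 UMIs, 500 and 1737 Camp UMIs, and 29 and 21 Elane UMIs. In S100a8 the cells without Camp overlapped the others, with 18 to 220 UMIs against 183 to 1590 in the IL34LacZ/LacZ library and 28 to 1341 against 310 to 1542 in the IL34LacZ/+ library.

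Camp, which encodes the antimicrobial peptide cathelicidin, Ngp, a cystatin-like granule protein, and Ltf, which encodes the iron-binding protein lactoferrin, lie on chromosome 9 (109847379 to 109849617, 110419747 to 110423012 and 111019271 to 111042767, GRCm38). Along the stages, Camp stood at 27478, 47257, 6161 and 71.0 CPM in the IL34LacZ/LacZ library and at 29282, 56636, 4760 and 182 CPM in the IL34LacZ/+ library. In azurophil cells 9 of 12 IL34LacZ/LacZ and 3 of 7 IL34LacZ/+ cells held Camp. Ltf was held by 6 of 12 and 2 of 7 of them, with no more than 25.8 and 29.1 per 10000, against medians of 77.5 and 76.4 per 10000 in the specific-granule-high stage, where every cell held it. No specific-granule-low cell held an Ltf UMI in either library, which allows up to 53.3 CPM in the IL34LacZ/LacZ and 182 CPM in the IL34LacZ/+ library, and 1.78% and 1.07% of endothelial-like cells held one. Lcn2, whose product lipocalin 2 binds bacterial siderophores and which no rule used, stood at 15439 CPM in the IL34LacZ/LacZ and 15218 CPM in the IL34LacZ/+ specific-granule-high stage, against 1891 and 1642 CPM in the azurophil stage and 2024 and 3821 CPM in the specific-granule-low stage.

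Sequences before the RefSeq start of 2 azurophil and 2 specific-granule genes are shown with their matches to a pair of short motifs. Both motifs were chosen with the expression values known: TTGCNNAA, a form of the site of C/EBP factors, which drive granule genes, and GAGGAAGT, a form of the site of ETS factors such as PU.1. They were searched on both strands in the 250 bases before the start that RefSeq annotates (GRCm38.p6). The bases shown are the part of that window outside any GENCODE vM21 exon, at chr10:79886062-79886246 and chr10:79879417-79879613 for the azurophil genes and at chr9:110419558-110419746 and chr9:111019042-111019270 for the specific-granule genes, all on the forward strand and 5′ to 3′, with matches in capitals.
Elane: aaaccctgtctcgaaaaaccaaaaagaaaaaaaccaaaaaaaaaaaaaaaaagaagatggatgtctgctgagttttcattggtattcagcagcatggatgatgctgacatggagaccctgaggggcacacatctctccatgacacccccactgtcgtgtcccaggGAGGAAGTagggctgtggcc
Prtn3: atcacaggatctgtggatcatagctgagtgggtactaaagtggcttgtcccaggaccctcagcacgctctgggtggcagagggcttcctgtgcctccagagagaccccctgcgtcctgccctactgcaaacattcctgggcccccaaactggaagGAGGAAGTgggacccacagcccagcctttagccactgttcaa
Ngp: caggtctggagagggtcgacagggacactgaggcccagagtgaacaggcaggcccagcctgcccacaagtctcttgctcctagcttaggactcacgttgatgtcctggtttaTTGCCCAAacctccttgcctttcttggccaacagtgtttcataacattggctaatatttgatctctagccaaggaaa
Ltf: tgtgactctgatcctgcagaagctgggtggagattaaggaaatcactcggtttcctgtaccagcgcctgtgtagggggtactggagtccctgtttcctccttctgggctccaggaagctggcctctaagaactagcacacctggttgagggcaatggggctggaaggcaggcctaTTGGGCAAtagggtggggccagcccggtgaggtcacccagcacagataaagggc
GAGGAAGT was found for 3 of 4 azurophil genes (Elane, Prtn3 and Mpo, not Ctsg) and for 0 of 5 specific-granule genes (Camp, Ngp, Ltf, Lcn2, Chil3), against 2.44% of 27025 promoters of the same length. TTGCNNAA was found for 0 of these 4 azurophil genes and for 3 of these 5 specific-granule genes (Ngp, Ltf and Lcn2), against 9.55% of promoters. The Elane match begins 85 bases before the annotated start, that of Prtn3 95, the one shown for Ngp 138 and that of Ltf 75, while a further Ngp match, 11 bases before the start, lies in the part not shown. The Lcn2 match, 216 bases before the start, lies outside the longest exon-free part of its window (53 bases). That window falls within the Lcn2 gene as GENCODE annotates it (chr2:32384633-32388252). The Prtn3 bases shown, with their match, likewise lie within the Prtn3 gene as GENCODE annotates it (chr10:79874476-79883174). The split did not extend to the other genes searched. Of 5 late genes (Retnlg, Mmp8, Csf3r, Cxcr2 and Il1b), 2 held TTGCNNAA (Retnlg and Mmp8) and 1 held GAGGAAGT (Mmp8), and of the 2 S100 genes S100a9 held TTGCNNAA and S100a8 GAGGAAGT. A match is a description of these letters and not a bound site, and the groups are of 2 to 5 genes.

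Median UMIs and genes per cell were lower at each later stage in both libraries. The median UMI count was 11337, 7194, 4378 and 3775 along the stages in the IL34LacZ/LacZ library, and 20253, 6986.5, 4096.5 and 2238 in the IL34LacZ/+ library. The median number of genes was 2556.5, 1498, 1065 and 1025.5 in the IL34LacZ/LacZ library, and 3389, 1471.5, 1012.5 and 723 in the IL34LacZ/+ library. The 10 most abundant genes took 19.7% and 17.0% of azurophil UMIs but 48.2% and 48.5% of specific-granule-high UMIs in the IL34LacZ/LacZ and IL34LacZ/+ libraries. Mitochondrial transcripts had medians of 4.99% in IL34LacZ/LacZ and 3.56% in IL34LacZ/+ azurophil cells and of 0.886% and 1.07% in specific-granule-low cells. At these depths the 12 IL34LacZ/LacZ azurophil cells gave 27.4% of that library's member UMIs, and the 7 IL34LacZ/+ azurophil cells gave 47.8%.

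**Figure D2:**
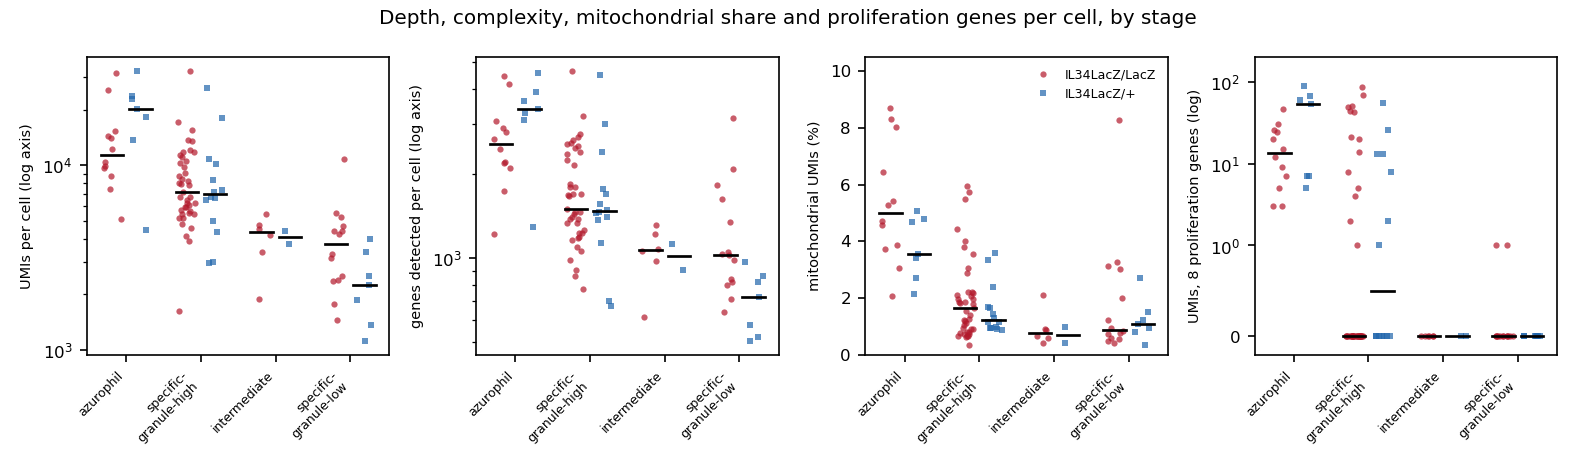
UMIs and genes per cell (log axes), mitochondrial UMIs (%) and UMIs of 8 proliferation genes (log axis, linear under 1) in each member, by stage, with IL34LacZ/LacZ cells as circles left of IL34LacZ/+ cells as squares and medians as bars. Median UMIs fall along the stages, to 3775 and 2238 in specific-granule-low cells, and proliferation genes are at 0 in all but 2 of the intermediate and specific-granule-low cells.

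Transcripts of dividing cells were found mainly in the azurophil and specific-granule-high stages. At least 3 UMIs of 8 proliferation genes (among them Mki67 and Top2a) were found in 12 of 12 IL34LacZ/LacZ and 7 of 7 IL34LacZ/+ azurophil cells, in 12 of 41 and 5 of 14 specific-granule-high cells, and in no intermediate or specific-granule-low cell. The same count held for 0.209% of IL34LacZ/LacZ and 0.0511% of IL34LacZ/+ endothelial-like cells (median 2347 and 2333 UMIs). After every member was thinned to 1000 UMIs, at least 1 UMI of these genes was left in 6 of 12 IL34LacZ/LacZ and 5 of 7 IL34LacZ/+ azurophil, 10 of 41 and 4 of 14 specific-granule-high, 0 of 6 and 0 of 2 intermediate and 1 of 14 and 0 of 7 specific-granule-low cells, against 0.890% and 0.562% of endothelial-like cells. Monocyte-like cells (median 7269 UMIs in the IL34LacZ/LacZ and 5313 in the IL34LacZ/+ library) stood above the endothelial-like ones. At least 3 UMIs were found in 10.6% and 10.7% of them, and at least 1 after thinning in 6.73% and 7.14%. By CPM the 18 proliferation genes summed to 9109, 8093, 2067 and 1828 along the stages in the IL34LacZ/LacZ library and to 13062, 7840, 2441 and 2002 in the IL34LacZ/+ library.

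Azurophil cells were set against specific-granule-high cells gene by gene, within each library, to describe what else separates the stages. Of 769 genes with enough UMIs, 206 (26.8%) were at least 2-fold higher and 79 (10.3%) at least 2-fold lower in azurophil cells in both libraries, each with an interval without 1. The 10 tested genes of ribosome biogenesis and translation were all higher (10 of 10), with a median log2 ratio of 2.48 in the IL34LacZ/LacZ library and 2.24 in the IL34LacZ/+ library, beside 0.41 and 0.50 over all tested genes. Npm1, a nucleolar chaperone, stood at 870 CPM in IL34LacZ/LacZ and 1318 CPM in IL34LacZ/+ azurophil cells against 95.9 and 146 CPM in specific-granule-high cells. Myb, a transcription factor of dividing progenitors, stood at 292 CPM in IL34LacZ/LacZ and 302 CPM in IL34LacZ/+ azurophil cells against 28.2 and 40.5 CPM.

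Genes of the later cell were lower in the azurophil stage. All 6 tested adhesion genes were lower, among them Itgam, which encodes the integrin chain CD11b, at 170 CPM in IL34LacZ/LacZ and 95.7 CPM in IL34LacZ/+ azurophil cells against 451 and 316 CPM in specific-granule-high cells. 5 of 8 tested maturation genes were lower, among them Ly6g, the surface marker by which mouse neutrophils are gated, at 6.08 CPM in IL34LacZ/LacZ and 22.1 CPM in IL34LacZ/+ azurophil cells against 705 and 551 CPM. Of the 12 specific-granule genes, which include the 3 that set the later stages, 8 were lower and none higher. 0 of 11 tested proliferation genes passed the fold in both libraries in either direction, with median log2 ratios of 0.47 in the IL34LacZ/LacZ and 0.79 in the IL34LacZ/+ library. Cebpe, which encodes the C/EBP factor required for specific granules, stood at 243 CPM in IL34LacZ/LacZ and 353 CPM in IL34LacZ/+ azurophil cells and 282 and 397 CPM in specific-granule-high cells, with 41.3 and 0 CPM in the intermediate stage.

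**Figure D3:**
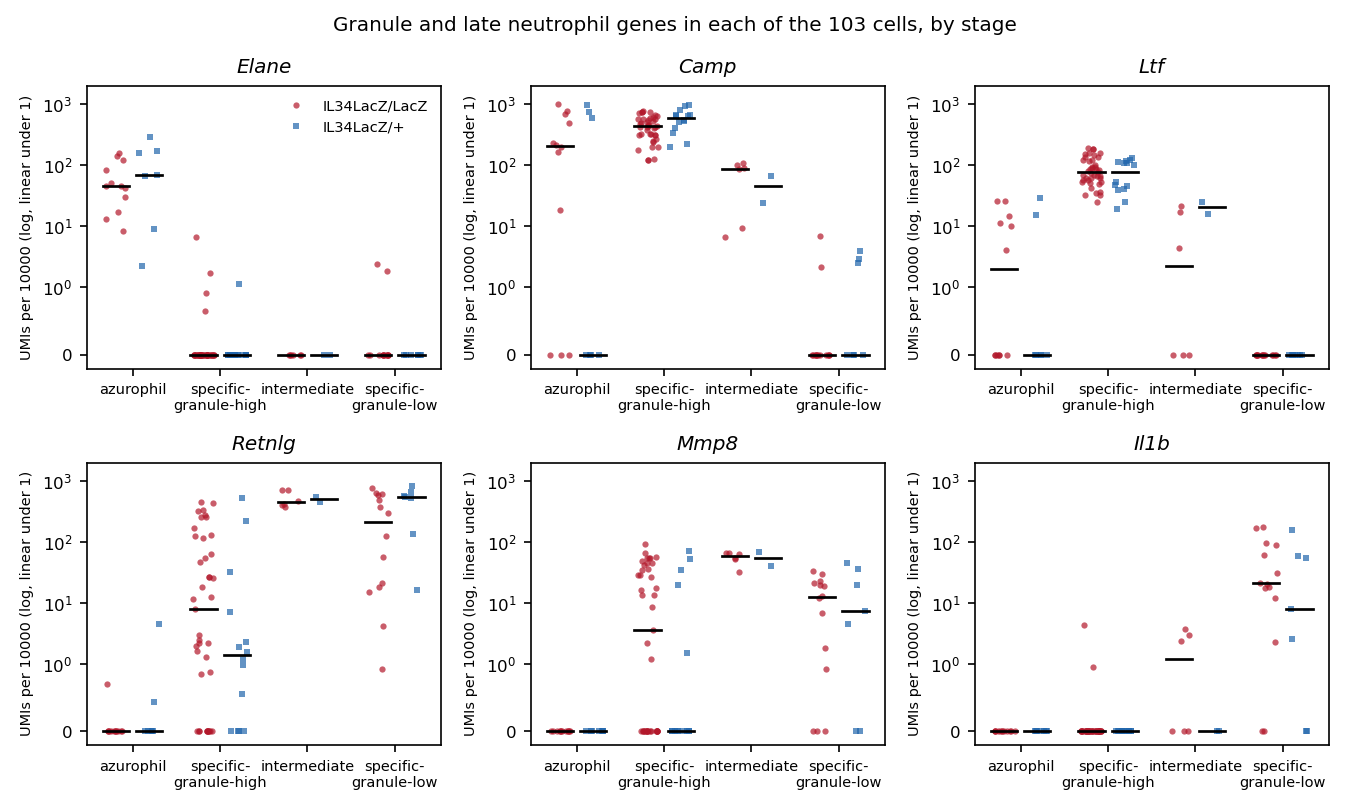
UMIs per 10000 UMIs of the cell (log axis, linear under 1) of 6 genes in each of the 103 members, by stage on the x axis, with IL34LacZ/LacZ cells as circles left of IL34LacZ/+ cells as squares and medians as bars. Elane is highest in the azurophil stage, with no more than 6.58 and 1.14 in specific-granule-high cells, Ltf peaks in the specific-granule-high stage, Retnlg spans the range of 0 to 442 and 0 to 522 within that stage and has medians of 443 and 501 in the intermediate stage, and Il1b is highest in specific-granule-low cells.

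Late neutrophil genes had their highest levels in the intermediate and specific-granule-low cells. Retnlg encodes resistin-like gamma, a secreted protein of mature granulocytes, and lies on chromosome 16 (48872621 to 48874496, forward strand, GRCm38). It stood at 6.08, 5902, 50901 and 25368 CPM along the stages in the IL34LacZ/LacZ library and at 22.1, 2057, 50531 and 51984 CPM in the IL34LacZ/+ library. All intermediate cells held at least 374 Retnlg UMIs per 10000, more than any azurophil cell, whose highest was 4.48. Without the 2 IL34LacZ/LacZ members that go against the neutrophil label, the specific-granule-low level of Retnlg in that library was 35254 CPM. Mmp8 and Mmp9, which encode a collagenase and a gelatinase, peaked in the intermediate stage of the IL34LacZ/LacZ library at 5748 and 2646 CPM. They stood at 5492 and 2197 CPM in that stage of the IL34LacZ/+ library. Neither had a UMI in azurophil cells, which allows up to 18.2 CPM in the IL34LacZ/LacZ and 22.1 CPM in the IL34LacZ/+ library.

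Specific-granule-low cells were set against specific-granule-high cells in the same way. Of 523 genes tested, 52 (9.94%) were higher and 27 (5.16%) lower at least 2-fold in both libraries. All 4 tested cytokine and chemokine genes were higher. Il1b, which encodes interleukin 1 beta, stood at 4119 CPM in IL34LacZ/LacZ and 2790 CPM in IL34LacZ/+ specific-granule-low cells and 8.46 and 0 CPM in specific-granule-high cells. At least 5 Il1b UMIs were found in 9 of 14 IL34LacZ/LacZ and 3 of 7 IL34LacZ/+ specific-granule-low cells and in no other member, and 0.471% and 0.613% of endothelial-like cells had any. Ccl6, a chemokine gene of myeloid cells, stood at 3373 CPM in IL34LacZ/LacZ and 3336 CPM in IL34LacZ/+ specific-granule-low cells against 50.8 and 16.2 CPM. Without the 2 members that go against the label, Il1b stood at 4717 CPM and Ccl6 at 4196 CPM in the IL34LacZ/LacZ library. Cxcl2, a chemokine gene that draws neutrophils, stood at 2219 CPM in IL34LacZ/LacZ and 485 CPM in IL34LacZ/+ specific-granule-low cells against 19.7 and 48.6 CPM, and 1 cell held 83 of its 125 IL34LacZ/LacZ UMIs. Without the same 2 members Cxcl2 stood at 2930 CPM in the IL34LacZ/LacZ specific-granule-low cells.

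Of the chemoattractant receptor genes, 2 had enough UMIs for this comparison, and neither was higher. Ltb4r1, a leukotriene B4 receptor gene, stood at 71.0 CPM in IL34LacZ/LacZ and 60.7 CPM in IL34LacZ/+ specific-granule-low cells against 197 and 211 CPM in specific-granule-high cells. Fpr2, a formyl peptide receptor gene, stood at 160 CPM and 0 CPM against 237 and 162 CPM. Csf3r and Cxcr2 had too few UMIs to enter it, and their levels are a description. Csf3r, the receptor gene for granulocyte colony-stimulating factor, stood at 42.6, 93.1, 165 and 639 CPM along the stages in the IL34LacZ/LacZ library and at 66.3, 89.1, 122 and 789 CPM in the IL34LacZ/+ library. Cxcr2, the chemokine receptor gene of marrow exit, stood at 0, 79.0, 620 and 799 CPM in the IL34LacZ/LacZ library and at 7.36, 40.5, 488 and 485 CPM in the IL34LacZ/+ library. Without the 2 members that go against the label, IL34LacZ/LacZ specific-granule-low cells had 621 CPM of Csf3r and 1117 CPM of Cxcr2. 6 of 8 tested transcription factor genes were higher than in specific-granule-high cells, among them Cebpb at 1757 CPM in IL34LacZ/LacZ and 1759 CPM in IL34LacZ/+ specific-granule-low cells against 341 and 202 CPM and Spi1, which encodes PU.1, at 657 and 667 CPM against 248 and 194 CPM. Cebpe was lower, at 17.8 CPM in the IL34LacZ/LacZ and 60.7 CPM in the IL34LacZ/+ library against 282 and 397 CPM. 4 of 7 tested immediate-early genes were higher (Fos, Junb, Dusp1 and Btg2), and Fos is also in the transcription factor list. Of 11 tested specific-granule genes, which include the 3 that set the stages, 6 were lower, among them Chil3, the gene of a chitinase-like protein, at 17.8 CPM in the IL34LacZ/LacZ and 60.7 CPM in the IL34LacZ/+ library against 4825 and 6163 CPM.

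**Figure D4:**
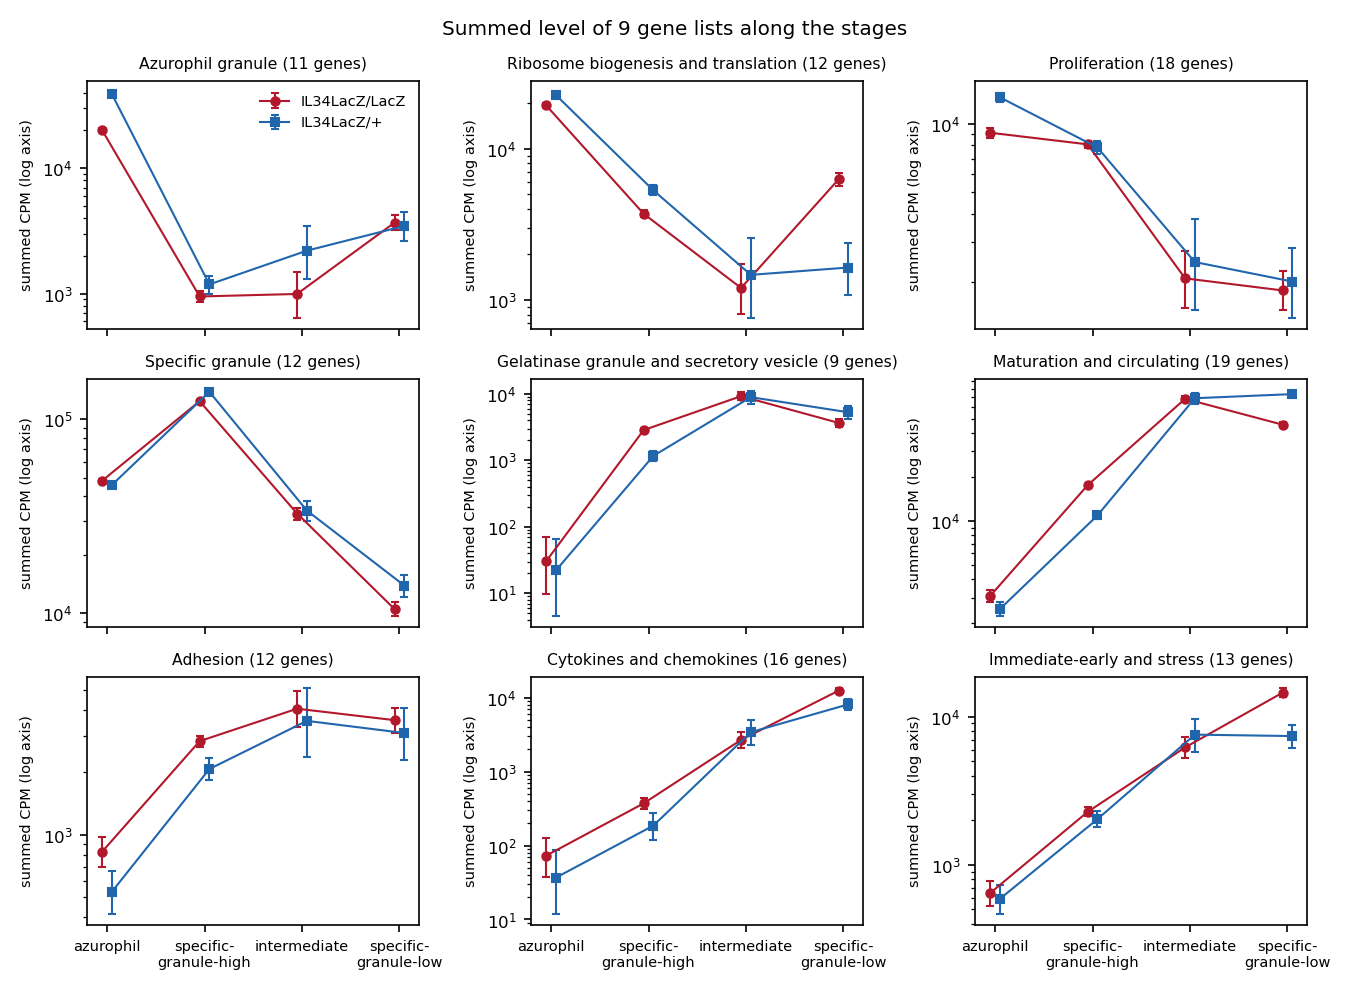
Summed CPM (log axis) of 9 gene lists in each stage (x axis, in order of granule formation) for the IL34LacZ/LacZ library (circles) and the IL34LacZ/+ library (squares), with exact Poisson 95% intervals. The azurophil, translation and proliferation lists are highest in azurophil cells, the specific-granule list in the specific-granule-high stage, and cytokine genes in specific-granule-low cells at 12444 and 8128 CPM.

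The translation list broke this order in 1 library. It stood at 6267 CPM in IL34LacZ/LacZ specific-granule-low cells and 1638 CPM in IL34LacZ/+ ones, and at 2781 CPM in the IL34LacZ/LacZ library without the 2 members that go against the label. The immediate-early list stood at 14521 CPM in IL34LacZ/LacZ and 7400 CPM in IL34LacZ/+ cells of that stage, and at 12836 CPM in the IL34LacZ/LacZ library without them. The remaining 12 IL34LacZ/LacZ cells had 10 with an Il1b UMI and 12 with a Cxcr2 UMI.

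Within the specific-granule-high stage, Retnlg marked cells that differed in other genes. At a limit of 10 per 10000, chosen after the values were seen, 20 of 41 IL34LacZ/LacZ cells (48.8%, 95% interval 32.9 to 64.9) and 3 of 14 IL34LacZ/+ cells (21.4%, 4.66 to 50.8) were at or above it. Mmp8 was held by 18 of these 20 IL34LacZ/LacZ and 3 of these 3 IL34LacZ/+ cells, against 5 of 21 and 2 of 11 cells under the limit. At least 3 proliferation UMIs were found in 1 of 20 IL34LacZ/LacZ and 0 of 3 IL34LacZ/+ cells at or above it, against 11 of 21 and 5 of 11 cells under it. Median Camp was 316 per 10000 in IL34LacZ/LacZ and 224 in IL34LacZ/+ cells at or above the limit, against 539 and 637 per 10000 under it. The cells at or above it were also shallower, with medians of 6043.5 UMIs in the IL34LacZ/LacZ and 3008 in the IL34LacZ/+ library, against 8457 and 7349 UMIs. Cells of the stage with late transcripts were seldom the cells with proliferation transcripts.

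The genotypes were compared first over all members, as the ratio of CPM in the IL34LacZ/LacZ library over that in the IL34LacZ/+ library. Of 888 genes with at least 100 UMIs, 27 (3.04%) were at least 2-fold higher and 39 (4.39%) at least 2-fold lower with an interval without 1, and the median log2 ratio over all of them was -0.11. With the median of ratios as scaling in place of CPM, 42 genes were higher and 23 lower, and with CPM computed without 8 abundant genes 44 were higher and 22 lower. The azurophil list, of 18 lists, had the median furthest from 0, with 8 of 9 tested genes lower and a median log2 ratio of -1.55. Elane stood at 2121 CPM in IL34LacZ/LacZ members and 6198 CPM in IL34LacZ/+ members (ratio 0.342, 0.318 to 0.368), and Ctsg, the gene of cathepsin G, at 232 and 1486 CPM (0.156, 0.128 to 0.189). A single IL34LacZ/+ cell held 46.3% of all Ctsg UMIs. The share of member UMIs that came from azurophil cells, 27.4% in the IL34LacZ/LacZ library and 47.8% in the IL34LacZ/+ library, went the same way. With each stage given the same weight in both libraries, the list's median was -0.74, and 10 genes in place of 39 were lower.

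The 10 tested translation genes had a median log2 ratio of -0.78, with 1 gene past the fold, and -0.13 with equal stage weights. The 11 tested proliferation genes had a median of -0.43, and 1 passed the fold. Specific-granule genes had a median of 0.27, or -0.070 with equal stage weights, and none of the 12 passed the fold. The 13 tested maturation genes had a median of 0.66, with all 13 above a ratio of 1 and 2 past the fold, and a median of 0.11 with equal stage weights. These 2 were Cxcr2, at 147 CPM in IL34LacZ/LacZ members and 63.4 CPM in IL34LacZ/+ members, and Il1b, at 399 and 162 CPM. In 4 shorter lists no gene was lower past the fold. Of 3 gelatinase-granule genes 2 were higher (Mmp8 and Mmp9, list median 1.14), of 4 cytokine and chemokine genes 2 (Il1b and Cxcl2, median 1.06), and of 6 chemoattractant receptor genes 2 (Cxcr2 and Ccr1, median 0.89). Of 8 immediate-early genes 3 were higher (Junb, Dusp1 and Zfp36, median 0.71). With equal stage weights the gelatinase and cytokine medians were 0.35 and 0.36, and 1 cell held 55.3% of the Cxcl2 UMIs. Rn18s, a ribosomal RNA gene, was also higher, at 2113 CPM in IL34LacZ/LacZ members and 993 CPM in IL34LacZ/+ members (ratio 2.13, 1.87 to 2.43). It went the same way outside the members, at 5791 and 2155 CPM in monocyte-like cells and 19412 and 15602 CPM in endothelial-like cells, and its part in these differences was not tested. Other higher genes included Thbs1, which encodes the matrix protein thrombospondin 1, at 464 and 84.5 CPM (ratio 5.49, 3.61 to 8.71), Junb at 455 and 151 CPM, Mmp9 at 817 and 338 CPM, Itgal, an integrin gene, at 170 and 52.8 CPM, and Pim1, a kinase gene, at 168 and 52.8 CPM.

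A comparison within the specific-granule-high stage, 41 IL34LacZ/LacZ against 14 IL34LacZ/+ cells, sets aside the unequal stage shares. Of 430 genes tested, 12 (2.79%) were at least 2-fold higher and 7 (1.63%) at least 2-fold lower in the IL34LacZ/LacZ library. Genes of the later cell were among those higher. Retnlg stood at 5902 CPM in IL34LacZ/LacZ cells and 2057 CPM in IL34LacZ/+ cells (ratio 2.87, 2.52 to 3.28), Mmp8 at 1390 and 559 CPM (2.49, 1.93 to 3.25) and Mmp9 at 945 and 324 CPM (2.92, 2.10 to 4.16). Slpi, which encodes an inhibitor of leukocyte proteases, stood at 914 CPM in IL34LacZ/LacZ and 235 CPM in IL34LacZ/+ cells (3.89, 2.66 to 5.90), and Thbs1 at 634 and 154 CPM (4.12, 2.58 to 6.98). Rn18s was again among the higher genes, at 2211 CPM in IL34LacZ/LacZ and 891 CPM in IL34LacZ/+ cells (2.48, 2.03 to 3.06), and its part in the result was not tested. The list medians were 0.34 for 8 maturation genes, -0.14 for 9 specific-granule genes, 0.17 for 7 proliferation genes and -0.54 for 7 translation genes, and among these only Retnlg and Slpi passed the fold.

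Cell by cell the ranges of both libraries overlapped for these genes. Retnlg per 10000 ran from 0 to 442 with a median of 8.01 in IL34LacZ/LacZ cells and from 0 to 522 with a median of 1.37 in IL34LacZ/+ cells, and 1 cell held 61.8% of the IL34LacZ/+ UMIs. Mmp8 was held by 23 of 41 IL34LacZ/LacZ and 5 of 14 IL34LacZ/+ cells, with medians of 3.62 and 0. Mmp9 was held by 24 of 41 IL34LacZ/LacZ and 6 of 14 IL34LacZ/+ cells. Of endothelial-like cells 0.157% in the IL34LacZ/LacZ and 0.153% in the IL34LacZ/+ library held an Mmp8 UMI and 0.262% and 0.256% an Mmp9 UMI. With the lower limit of the stage at 600 per 10000, a step added after the data were seen, the ratio of Retnlg was 11.9 (8.30 to 17.6), from 33 IL34LacZ/LacZ and 12 IL34LacZ/+ cells. The IL34LacZ/+ cells dropped by that limit held 157 and 66 of the 254 Retnlg UMIs, and 31 were left. The rise of the ratio therefore rests on the loss of these few cells. Without the members that held transcripts of another cell type the ratio of Retnlg was 2.47 (2.17 to 2.83). The Camp level went the other way, at 47257 CPM in IL34LacZ/LacZ cells and 56636 CPM in IL34LacZ/+ cells (ratio 0.834), and Ltf was at 8339 and 7419 CPM (1.12), neither past 2-fold. Retnlg-rich cells were a larger share of the IL34LacZ/LacZ stage than of the IL34LacZ/+ one, with the overlapping intervals given for the limit of 10 per 10000.

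**Figure D5:**
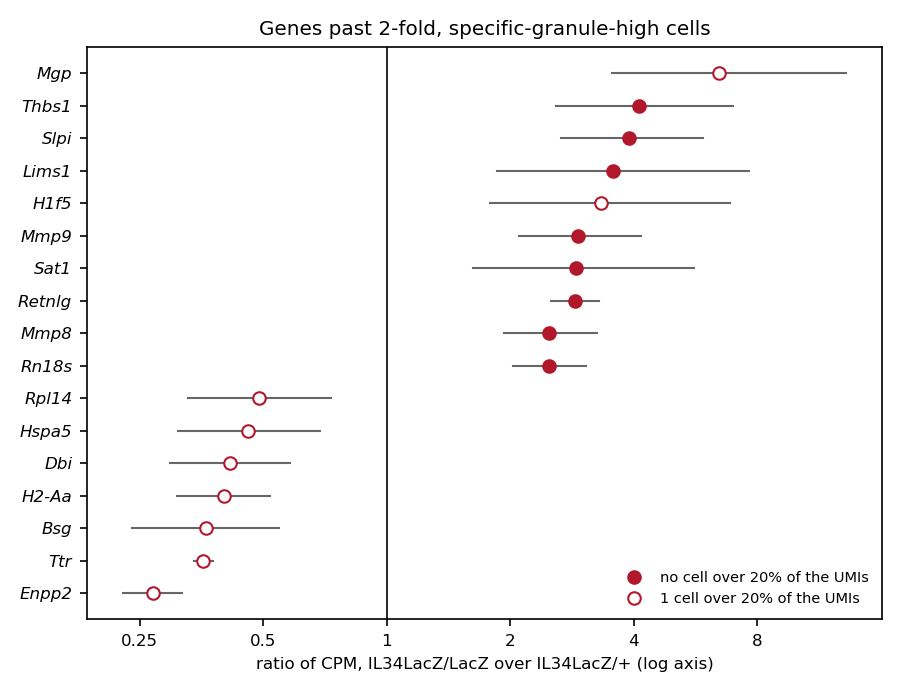
Ratio of CPM in specific-granule-high cells, IL34LacZ/LacZ over IL34LacZ/+ (log axis), with exact 95% intervals, for the 10 of 12 higher genes that the naming rule takes and all 7 lower genes. Open points mark genes with over 20% of their UMIs in 1 cell. The 8 filled points all lie above 1, and every gene below 1 is an open point.

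All 7 lower genes had over 20% of their UMIs in 1 cell. Ttr stood at 7670 CPM in IL34LacZ/LacZ and 21487 CPM in IL34LacZ/+ specific-granule-high cells, but at 1551 and 2039 CPM (ratio 0.761, 0.637 to 0.911) without the members that held transcripts of another cell type. Enpp2, the choroid plexus gene of autotaxin, stood at 719 CPM in IL34LacZ/LacZ and 2673 CPM in IL34LacZ/+ cells (ratio 0.269) and at 234 and 92.7 CPM (2.53, 1.21 to 6.09) without them. Of the 67 IL34LacZ/LacZ Enpp2 UMIs then left, 1 cell held 51, and without that cell the ratio was 0.628 (0.254 to 1.69). H2-Aa, an MHC class II gene, had 4 UMIs in IL34LacZ/LacZ and 0 in IL34LacZ/+ cells without them, in place of 130 and 113. Mgp, the gene with the largest ratio, stood at 575 CPM in IL34LacZ/LacZ and 89.1 CPM in IL34LacZ/+ cells (6.46), and at 122 and 92.7 CPM (1.32, 0.601 to 3.29) without them. In endothelial-like cells Ttr stood at 19244 CPM in the IL34LacZ/LacZ and 45751 CPM in the IL34LacZ/+ library, and the part of free RNA in these values was not tested.

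Monocytes are the nearest other blood myeloid cells, and members were set against 104 IL34LacZ/LacZ and 56 IL34LacZ/+ monocyte-like cells (under 20 UMIs of the S100 pair and at least 3 of Ccr2 and Ly6c2, with the other limits of the member rule and no UMI of Cd3e or Nkg7). Of 2459 genes tested, 66 (2.68%) were at least 4-fold higher and 163 (6.63%) at least 4-fold lower in members in both libraries. S100a8, S100a9 and Nkg7, all among the higher genes, were used by the rules. Of the monocyte-like cells 6 held Elane in the IL34LacZ/LacZ library, with 164 UMIs, and 3 in the IL34LacZ/+ library, with 111 UMIs, so that this class also holds cells with azurophil transcripts. It also held the dendritic cell gene Cd209a, at 872 CPM in the IL34LacZ/LacZ and 611 CPM in the IL34LacZ/+ library, and Cd74 at 11952 and 9215 CPM. The comparison is therefore with this class as picked and not with monocytes alone. Ngp stood at 23269 CPM in IL34LacZ/LacZ members and 1.15 CPM in monocyte-like cells of that library, and at 21453 and 2.85 CPM in the IL34LacZ/+ library. Wfdc21, a whey acidic protein gene of granulocytes, stood at 4642 CPM in members against 3.46 CPM in the IL34LacZ/LacZ library and at 3081 against 2.85 CPM in the IL34LacZ/+ library. Lrg1, which encodes a secreted leucine-rich glycoprotein, had 134 UMIs in IL34LacZ/LacZ and 48 in IL34LacZ/+ members against 0 and 1 in monocyte-like cells.

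By list, 9 of 12 specific-granule genes, 5 of 9 azurophil genes and 3 of 3 gelatinase-granule genes were higher in members, and none of them was lower. The 5 azurophil genes were Elane, Prtn3, Ms4a3, Serpinb1a and Nkg7. The result of Nkg7 was fixed by the monocyte-like rule, which allowed no Nkg7 UMI. Lyz2, the lysozyme gene that both lineages use, was at 7207 CPM in IL34LacZ/LacZ and 6106 CPM in IL34LacZ/+ members against 12879 and 13002 CPM in monocyte-like cells. 4 of 6 tested interferon genes were lower in members, Isg15, Irf7, Ifitm3 and Bst2, and none higher. Ifitm3 stood at 791 CPM in IL34LacZ/LacZ and 475 CPM in IL34LacZ/+ members against 3845 and 3810 CPM. 5 of 12 immediate-early genes were lower, among them Egr1 at 35.0 CPM in IL34LacZ/LacZ and 14.1 CPM in IL34LacZ/+ members against 439 and 437 CPM and Atf3 at 43.4 and 14.1 CPM against 741 and 850 CPM. The lower genes named by the rule included Fn1, the fibronectin gene, at 8.34 CPM in IL34LacZ/LacZ and 10.6 CPM in IL34LacZ/+ members against 562 and 651 CPM, F13a1, which encodes a coagulation factor chain, at 10.0 and 7.04 CPM against 411 and 545 CPM, and S100a4, which encodes a calcium-binding protein, with 15 and 5 UMIs against 921 and 329. They also included Irf8, the transcription factor gene of the monocyte branch, with 7 UMIs in IL34LacZ/LacZ and 0 in IL34LacZ/+ members against 303 and 130. Csf1r, the receptor gene for CSF1 and for interleukin 34, was lower too, with 58.4 CPM in IL34LacZ/LacZ and 10.6 CPM in IL34LacZ/+ members against 263 and 248 CPM.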

How the data were processed

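Single cells sorted from adult mouse brain were measured in 2 libraries with 10x 3′ v3.1 chemistry, per the labels' protocols. The authors deposited a matrix of UMI counts for each library. Its header names Cell Ranger 5.0.0, and the submitters' processing notes name the builds GRCm38.p6 and mm10. These counts are raw, cover 25827 genes, and hold no barcode under 500 UMIs. The shallowest barcodes are therefore missing. How doublets and free RNA were treated before deposit is not stated, and Scrublet (in scanpy 1.11.5, expected rate 10%) was run on each library.

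The counts of members were summed per library and stage and divided by their total (CPM). Ratios are IL34LacZ/LacZ over IL34LacZ/+, stage over stage, or members over monocyte-like cells, with exact conditional binomial 95% intervals. Levels have exact Poisson intervals and shares Clopper-Pearson ones. A gene was tested with 100 UMIs or more in the sums compared, and called past 2-fold (4-fold against monocyte-like cells), with an interval without 1 and, between stages and cell classes, in both libraries. Endothelial-like cells passed the cell filter and had 5 or more UMIs of Cldn5 and Flt1, at most 4 C1q UMIs and under 20 UMIs of the S100 pair. Cells rich in S100 transcripts are therefore left out of this background. The ratio intervals were run on simulated Poisson sums for each library, which hold no spread between cells. That run cannot show how the intervals behave when cells differ. With 1 library per genotype no statistical test was possible, and the labels do not say whether animals were pooled.

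The 18 gene lists (214 genes, 212 found) and the members were chosen with earlier results of these data known. Some genes, among them Fos, Egr1, Mxd1, Il1b, Cxcr2 and Fpr2, are shared between lists, so the counts of different lists are not separate. The genes named are those of the lists, the 10 genes each way whose interval bound lies furthest from 1 between genotypes, the 10 each way with the largest smaller fold of the 2 libraries against monocyte-like cells, and the genes of the mixed cells, which were chosen after their values were seen. Promoter sequences are from RefSeq (GRCm38.p6), where all 16 genes looked up were found, and gene positions from GENCODE vM21. The alternatives changed the cell limits, the scaling, the weighting of cells and stages, the depth and the fold. Scripts ran in Python 3.11.15 (pandas 2.3.3, numpy 2.4.6, scipy 1.17.1, matplotlib 3.10.9).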

Additional observations from a re-analysis of the deposited data

How the results depend on the processing

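No paired analysis was possible because each genotype has 1 library. Alternatives that dropped mixed members, restricted the comparison to 1 stage, left out the top cell, added list medians or raised the stage limit to 600 were chosen after seeing the data. The share of members was 1.29% in the IL34LacZ/LacZ library and 0.767% in the IL34LacZ/+ library at a mitochondrial limit of 5%, and 0.553% in the IL34LacZ/LacZ library at 20%, and 13 of 16 recomputed shares moved by less than their interval. Of 80 stage shares 79 did so, and with doubled stage limits the IL34LacZ/LacZ intermediate share was 17.8%.

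The counts of genes past the fold between genotypes, 27 higher and 39 lower, depended on most settings, and 16 of 36 recomputed counts stayed within 1.5-fold. Higher and lower counts were 17 and 18 at an S100 limit of 50 UMIs, 42 and 23 with median-of-ratios scaling, 44 and 22 without 8 abundant genes, 14 and 17 with equal weight per cell, 2 and 2 after thinning to 1000 UMIs, 97 and 73 at 50 UMIs per gene, 255 and 326 with no filter, 112 and 165 at a fold of 1.5, and 12 and 7 in the specific-granule-high stage. The lower count was 65 without members holding monocyte genes and 10 with equal stage weights. Depth limits these counts: after thinning 116 genes could be tested, in place of 888.

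Of 124 recomputed list medians 94 moved by less than their interval. The azurophil median was -1.94 at a mitochondrial limit of 5%, -1.31 at an S100 limit of 10, -2.03 without members holding monocyte genes, -1.42 without 8 abundant genes, -1.27 with equal weight per cell, -0.74 with equal stage weights, -1.07 after thinning and -0.23 in the specific-granule-high stage. The specific-granule median was 0.45 without members holding monocyte genes, -0.070 with equal stage weights, 0.031 after thinning and -0.14 in the specific-granule-high stage. The maturation median was 0.071 with equal weight per cell, 0.11 with equal stage weights, 0.094 after thinning and 0.34 in the specific-granule-high stage, where the proliferation median was 0.17 and the immediate-early one 0.22. With equal weight per cell, with equal stage weights and after thinning the gelatinase median was 0.42, 0.35 and 0.65 and the cytokine median 0.18, 0.36 and 0.18, and after thinning the immediate-early median was -0.19, against 0.71. The translation median was -1.002 without members holding monocyte genes, -0.47 with equal weight per cell, -0.13 with equal stage weights, -0.45 after thinning and -0.54 in the specific-granule-high stage.

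Of 279 recomputed ratios of named genes 206 moved by less than their interval, 70 moved further and 3 reversed. Enpp2 was 2.13 without the mixed members and 0.931 when the 1 IL34LacZ/LacZ cell with 51 of the UMIs then left was dropped too, and within the specific-granule-high stage Cxcl2 was 0.406 and Elane 1.74. Both of these stage ratios rest on few UMIs. Cxcl2 was held by 3 IL34LacZ/LacZ and 3 IL34LacZ/+ cells of the stage, with at most 3 UMIs in a cell. Elane was held by 4 and 1, with at most 9 and 3 UMIs. Against monocyte-like cells 130 genes were higher and 450 lower at a fold of 2, and 26 and 27 with specific-granule-low members only. The 4 counts between stages stayed within 1.5-fold without mixed members. The cause of these changes was not tested.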

Other observations

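The limit on C1q transcripts kept a second set of S100-rich cells out. In the IL34LacZ/LacZ library 102 filtered cells had at least 20 S100a8 and S100a9 UMIs together with more than 4 C1q UMIs (2.59% of 3936 cells with more than 4 C1q UMIs), against 59 in the IL34LacZ/+ library (1.74% of 3398). Their median S100 count was 1245 UMIs in the IL34LacZ/LacZ library and 801 in the IL34LacZ/+ library, and their median C1q count 110.5 and 76 UMIs. S100a8 and S100a9 were a median of 10.3% and 10.6% of their UMIs, against 31.9% and 31.8% in members. Mrc1, a gene of border-associated macrophages, was held by 84 and 49 of them, P2ry12, a microglial gene, by 69 and 36, and at least 5 UMIs of Retnlg by 64 and 44. Scrublet marked 5 and 2 of them. Whether these barcodes held more than 1 cell was not tested.

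Azurophil genes were also present below the S100 limit. In the IL34LacZ/LacZ library 18 cells and in the IL34LacZ/+ library 8 cells met the azurophil limits, and every other limit of the member rule, with fewer than 20 S100 UMIs, and 9 and 3 of them had none.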
